A study of Arabidopsis thaliana with 4 samples.

Results

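Arabidopsis seedlings grown at 16 °C were compared with seedlings grown at 22 °C, both in white light rich in red relative to far-red. Chosen by their labels, these were 2 of the 4 arrays of the study, with 1 array for each temperature. Both groups were La-er plants with the phyA-2 allele, which disables phytochrome A, a photoreceptor for far-red light, and since all plants of the study were labelled as phyA mutants, no group had the intact gene. Seedlings were raised on soil for 5 days, the white light measured 100 µmol per m2 and s at a red to far-red ratio (R:FR) of 4.4, and RNA was taken from cotyledons with a little hypocotyl. The other 2 arrays, again from 16 and 22 °C, held phyA mutants (labelled phyA-2 at 22 °C and phyA at 16 °C) of the same age that had spent the last 24 h at an R:FR of 0.1. They are used below as a second, separate temperature comparison that shares no array with the first. How many plants each array held is not stated, and the stage that the seedlings had reached at 5 days cannot be told apart from temperature.

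Ambient temperature sets the pace at which seedlings grow. Warmth within the range that plants tolerate promotes elongation through the transcription factor PIF4 and auxin, while cool conditions favour the expression of cold-regulated genes and alter sugar metabolism. Jasmonate and its partner hormones control defence genes, among them those for plant defensins, osmotin-like proteins and the enzymes that make glucosinolates, the sulphur-containing defence compounds of the cabbage family.

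The array held 22810 probe sets, of which 13643 counted as measured, and the values are linear signals, 1 for each probe set and array. A value below 14.5 was raised to that floor before log2 was taken, and a probe set was measured when its mean over the 4 arrays reached a signal of 23.2. Pearson's r of log2 signal between both arrays was 0.9577 over the measured probe sets, and the median signal was 36.1 at 16 °C and 39.2 at 22 °C. With 1 array a group there is no test, so a difference of at least 2-fold (a log2 change of at least 1 in size) is a rule of size, and no p-value can be given. As a scale of error, 18 spiked-in hybridization controls had log2 differences with a mean of 0.186 and an SD of 0.205, the largest being 0.68 in size. These controls cover neither plants nor RNA extraction. The local SD given beside some genes is a robust SD of changes over the 500 neighbours in signal, which also contains true differences, and its median was 0.348. Just 1 gene was assigned to 7317 of these probe sets, with a RefSeq symbol for 1079, so most genes known to respond to cold or warmth, PHYA included, are not named here and were not analysed.

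The label was set against marker genes. RCA, which encodes the activase of Rubisco, had signals of 4327 at 16 °C and 4170 at 22 °C, and PRK, which encodes the Calvin cycle enzyme phosphoribulokinase, of 3412 and 2809. These were the measured cotyledon markers, 2 of 20 listed. Of 20 root markers 3 had a named probe set: the root hair genes EXPA7 (13.8 and 15.8) and EXPA18 (18.6 and 11.2) lay near the floor, and PYK10, a beta-glucosidase gene that is also active in seedling shoots, stood at 2024 and 2913. The apex genes CLV3 and UFO were below the floor on both arrays. LAS had 23.5 and 25, LEP 53.8 and 38.9, and the seed gene LEA4-5 0.8 and 1.2. Of the reference genes 0 of 6 measured passed 2-fold, beside 1.12% higher and 3.17% lower of all measured probe sets. Their log2 changes ran from -0.02 to 0.19, and their median was 0.04 beside -0.04 for all measured probe sets. In tissue samples like these, fewer cells of a type and less RNA per cell cannot be told apart.

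More probe sets were lower than higher at 16 °C. At least 2-fold lower were 432 probe sets (3.17% of those measured) and at least 2-fold higher 153 (1.12%). At least 4-fold lower were 25 and at least 4-fold higher 9. The split depended on scaling. Of the 2-fold calls 26.2% were higher, 41.5% after the arrays were scaled to the same median, a step that moved the median change of all measured probe sets from -0.04 to 0.07, and 36.7% after the trend of change with signal was removed. That trend was visible in the deposited signals: when measured probe sets were ranked by signal and cut into 5 equal classes, from the dimmest to the brightest class the median log2 change went from -0.14 to 0.09, and the share at least 2-fold lower from 6.6% to 1.54%. Symbols were also uneven: 62 of the lower probe sets and 5 of the higher ones had one, so the higher side below is described largely by locus tags and by genes short of 2-fold.

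**Figure D1:**
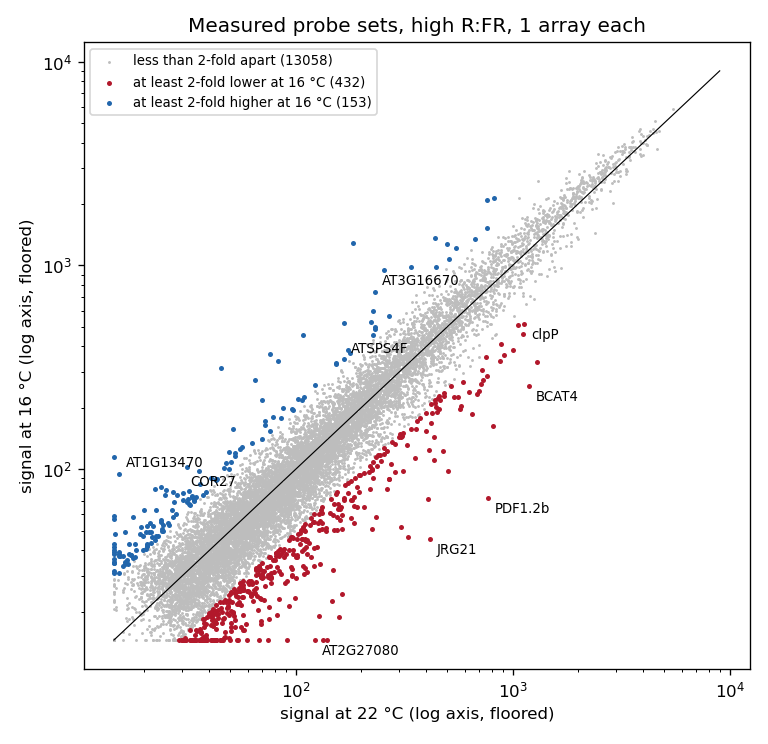
Signal of each of the 13643 measured probe sets in high R:FR, at 22 °C on the x axis and at 16 °C on the y axis, both log axes, with signals under 14.5 set to that floor and equal signals on the black line. The 432 red points are at least 2-fold lower and the 153 blue points at least 2-fold higher at 16 °C, and both groups are densest at low signal.

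Genes of the jasmonate response were far lower at 16 °C. PDF1.2b, a plant defensin gene, had a signal of 71.8 at 16 °C and 767 at 22 °C in high R:FR, and of 13.5 and 232 in low R:FR. The 16 °C arrays were thus the lower ones in both lights, and the gene was 10.7-fold lower at 16 °C in high R:FR (log2 -3.42, local SD 0.33), the lowest value of any gene named here. Its probe set is one that the array design marks as able to bind related transcripts, so signal from other defensin genes may be included. PDF1.2, the defensin gene most used as a marker of jasmonate and ethylene response, had 24.4 and 164 in high R:FR and 12.6 and 59.2 in low R:FR (log2 -2.75 in high R:FR).

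JRG21, which encodes an oxygenase that inactivates jasmonic acid by hydroxylation and is itself induced by jasmonate, had 45.4 and 416 in high R:FR and 6.2 and 513 in low R:FR. Again both 16 °C arrays lay far under both 22 °C arrays, with a log2 change of -3.20 in high R:FR. PDF1.4, another defensin gene, had 104 and 220 in high R:FR and 58.9 and 270 in low R:FR (log2 -1.08), and it did not pass 2-fold when the arrays were scaled to the same median (-0.96). All 4 measured genes of the 43 on the jasmonate list were thus at least 2-fold lower, beside 3.17% of all measured probe sets, and their median was -2.97 beside -0.04 for all. This list and those below were chosen with earlier results of these data known, so their counts are descriptions. PDF1.2b, PDF1.2 and PDF1.4 are also related genes, and the PDF1.2b probe set may bind transcripts of its relatives. On the same list THI2.1, a thionin gene, was too dim to count as measured, with 3.5 and 27.3. ORA47, a factor that activates genes of jasmonate synthesis, stood outside the rule for naming genes and was picked after its values were seen, with 37 and 75.3 (log2 -1.03).

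Other defence and stress genes were mostly lower but few passed 2-fold. OSM34, which encodes an osmotin-like protein, had 52.2 at 16 °C and 306 at 22 °C in high R:FR, and 12.1 and 571 in low R:FR. It was 5.85-fold lower at 16 °C in high R:FR (log2 -2.55) and the lower arrays were those of 16 °C in both lights. It was the 1 gene of 3 measured on the salicylate and pathogen list to be at least 2-fold lower, beside 3.17% of all measured probe sets. The others, WRKY53 (-0.31), a transcription factor gene, and SAG101 (-0.27), which acts in immune signalling, lay within 1 local SD of 0. The list median was -0.31.

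Among early stress factors and ubiquitin ligases, 1 of 6 measured genes was at least 2-fold lower, beside 3.17% of all measured probe sets, and 5 of 6 were below 0, beside 54.3%, with a median of -0.61. The 1 was PUB19, a ubiquitin ligase gene known from the drought response, with 22.6 at 16 °C and 147 at 22 °C in high R:FR, and 80.9 and 130 in low R:FR. Its array of 16 °C in high R:FR was therefore the only low one of the 4 (log2 -2.71, and -0.68 in low R:FR). The zinc finger gene STZ, with 278 and 535 in high R:FR, was at -0.94 there and at -2.39 in low R:FR. The ligase genes PUB23 (-0.31), PUB24 (-0.51) and PUB22 (0.18), which dampen immune signalling, were nearer to 0 in high R:FR and were at -2.95, -1.57 and -1.84 in low R:FR. ALDH7B4, an aldehyde dehydrogenase gene of the stress response, had 114 and 353 in high R:FR and 130 and 390 in low R:FR, nearly the same pair of signals in each light (log2 -1.63 and -1.59).

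Of the glucosinolate and myrosinase list, 2 of 5 measured genes were at least 2-fold lower, beside 3.17% of all measured probe sets, and both act in glucosinolate synthesis. BCAT4, whose aminotransferase begins the lengthening of methionine for aliphatic glucosinolates, had a signal of 255 at 16 °C and 1191 at 22 °C in high R:FR, and 309 and 797 in low R:FR. The temperatures did not overlap, and the high R:FR change was 4.66-fold (log2 -2.22, local SD 0.32). AOP3, which modifies the side chain of the same compounds, had 242 and 697 in high R:FR and 317 and 604 in low R:FR (log2 -1.52 and -0.93). Of the 5 genes 4 were below 0, beside 54.3% of all measured probe sets, and the median was -0.93. The remaining values were 0.11 for AOP1, of the same gene family as AOP3, and -0.93 and -0.53 for BGLU46 and PYK10, which encode beta-glucosidases and make no glucosinolate. UGT74B1, the glucosyltransferase that completes the glucosinolate core, was noticed after the values were seen, with 172 and 364 in high R:FR and 168 and 352 in low R:FR (log2 -1.08 and -1.06).

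PYK10 is the main protein of ER bodies, compartments of seedling cells in cabbage relatives that store beta-glucosidases, and other genes of that system were grouped with it after their values were seen. NAI2, which is needed to form ER bodies, had 65.5 at 16 °C and 191 at 22 °C in high R:FR and 41.7 and 185 in low R:FR (log2 -1.54 in high R:FR). JAL22, a jacalin-related lectin gene, had 261 and 716 in high R:FR and 116 and 530 in low R:FR (log2 -1.46). JAL34, a lectin gene of the same family, had 511 and 1058 in high R:FR and 286 and 976 in low R:FR (log2 -1.05). For each of the 3 genes both 16 °C arrays were below both 22 °C arrays, as was so for 30.5% of all measured probe sets. Because PYK10 is also listed here as a root marker, its sum of 2024 and 2913 is the whole measured signal of that list, while the root hair genes EXPA7 and EXPA18 stayed near the floor. The part of root tissue in these values was not tested.

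**Figure D2:**
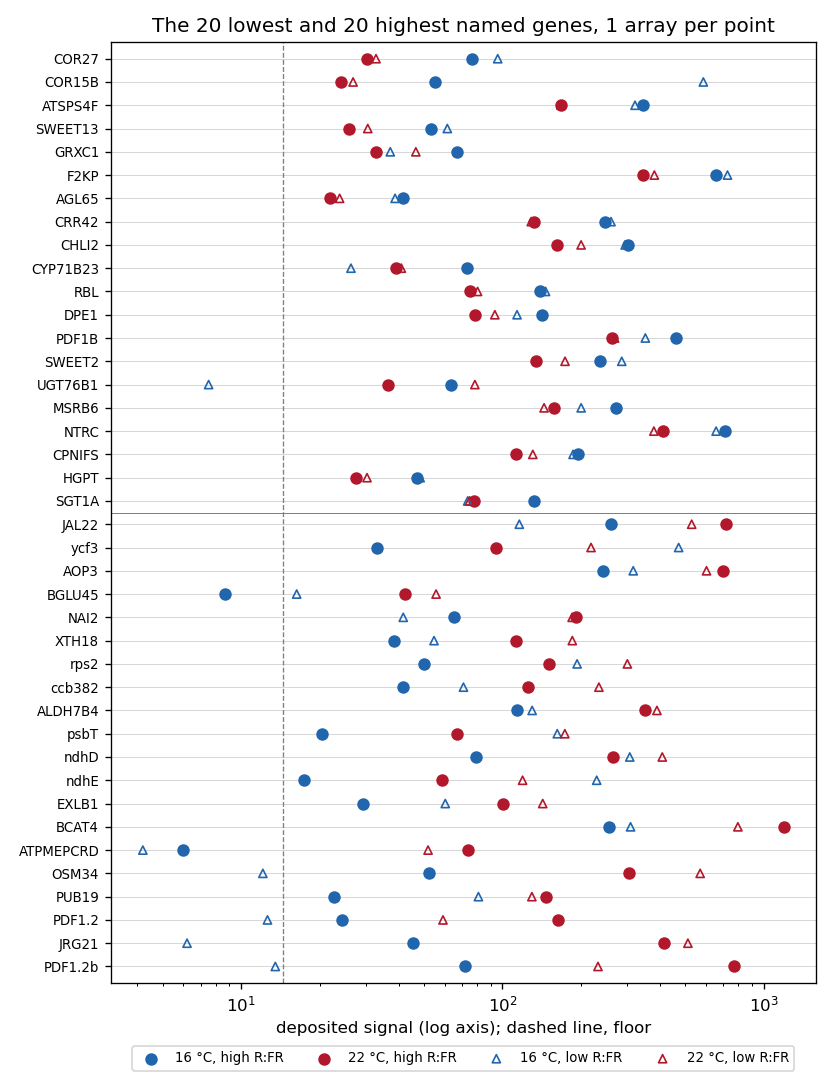
Deposited signal (log axis) on each of the 4 arrays for the 20 highest and the 20 lowest log2 changes in high R:FR among measured genes with a symbol, ordered by that change. Filled circles are the high R:FR arrays and open triangles the low R:FR arrays, blue at 16 °C and red at 22 °C, and the dashed line is the floor of 14.5. The lowest genes reach log2 -3.42, while the highest reach 1.34.

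Most measured genes of the auxin and cell wall lists were lower at 16 °C in high R:FR, though most fell short of 2-fold. WES1 (GH3.5), which encodes an enzyme that conjugates auxin to amino acids, had 58.3 at 16 °C and 154 at 22 °C in high R:FR, and 147 and 269 in low R:FR (log2 -1.40 in high R:FR). GH3.3, of the same family, had 49.5 and 110 in high R:FR and 99.2 and 249 in low R:FR (log2 -1.15). In each light the cooler array was lower, but signals at 16 °C in low R:FR were near those of 22 °C in high R:FR. Of the 35 listed auxin genes 4 were measured, and 2 of these were at least 2-fold lower, beside 3.17% of all measured probe sets. Below 0 were 3 of the 4, beside 54.3% of all, and the median was -0.69. The others were HAT2 (-0.24) and IAA29 (0.52, with 28.5 and 19.9), both transcriptional regulators.

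XTH18, which encodes an enzyme that cuts and rejoins xyloglucan, had 38.4 and 113 in high R:FR and 54.7 and 185 in low R:FR (log2 -1.56 in high R:FR). It was the 1 gene at least 2-fold lower among the 9 measured of the expansin and XTH list, beside 3.17% of all measured probe sets. Of the 9, 8 were below 0, beside 54.3% of all. EXPA15 was at -0.69, XTH19 at -0.64, EXPA4 at -0.63, EXPA8 at -0.30, EXPB3 at -0.19, XTH33 at -0.18 and XTH16 at -0.06. Of the list, EXPB1 was the 1 gene above 0, at 0.25 with dim signals of 26.1 and 22. The list median was -0.30, and -0.01 in low R:FR.

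Expansin and XTH genes off that list went both ways, so the share below 0 holds for the list only: EXPA16 was at 0.36, EXPA9 at 0.29 and XTH32 at 0.07. The expansin-like gene EXLB1 had 29.2 and 101 in high R:FR and 60.4 and 143 in low R:FR (log2 -1.78), and EXLA1, noticed after its values were seen, had 59.8 and 149 in high R:FR and 66.7 and 152 in low R:FR (log2 -1.32). ATPMEPCRD, a pectin methylesterase gene, had 6 at 16 °C and 74.1 at 22 °C in high R:FR, and 4.2 and 51.9 in low R:FR. Both 16 °C values were under the floor, so it was at least 5.11-fold lower in high R:FR. It led the pectin list, where 1 of 3 measured genes was at least 2-fold lower, beside 3.17% of all measured probe sets. All 3 were below 0, beside 54.3% of all, with PMEPCRF at -0.65 and CSLC4, a xyloglucan backbone synthase gene, at -0.19.

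BGLU45, a relative of BGLU46 in the beta-glucosidase family, had 8.7 at 16 °C and 42.2 at 22 °C and was at least 2.91-fold lower. PRX52, a cell wall peroxidase gene of lignin formation, had 61.1 and 133 in high R:FR and 28.4 and 167 in low R:FR (log2 -1.12). It did not pass 2-fold with the arrays scaled to the same median, nor when log2 was taken of the signal plus 14.5 (-0.96).

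On the higher side, 3 of 6 measured cold-regulated genes and 2 of 7 genes of sugar metabolism were at least 2-fold higher. COR27, a cold-induced gene that also acts in the clock and in light signalling, had 76.5 at 16 °C and 30.3 at 22 °C in high R:FR, and 95.9 and 32.8 in low R:FR. Both 16 °C arrays were above both 22 °C arrays, and the change was 2.53-fold (log2 1.34, local SD 0.46), the highest of any gene with a symbol under the naming rule. AT4G33980 (COR28), its relative, had 42.9 at 16 °C in high R:FR, 2.36-fold above its 22 °C signal, and 30.4 and 23.4 in low R:FR (log2 1.24 and 0.38).

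COR15B, which encodes a chloroplast protein that protects membranes in the cold, had 55.2 and 24 in high R:FR, against 588 and 26.8 in low R:FR, 2.3-fold and 21.9-fold higher at 16 °C. The array of 16 °C in low R:FR was thus far above the other 3. Its paralog COR15A was not higher in high R:FR, with dim signals of 15.3 and 28.7 (log2 -0.91), but was in low R:FR, with 314 and 18.8. The dehydrin gene COR47 had 349 and 516 in high R:FR (log2 -0.56), and LTI30, another dehydrin gene, was at 0.14. On the cold list 3 of 6 measured genes were at least 2-fold higher in high R:FR, beside 1.12% of all measured probe sets, and 0 were lower, with a median of 0.67. That median was 0.15 when the floor was raised to the 50th percentile, since COR15B and COR28 are dim.

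In sugar metabolism, ATSPS4F, which encodes sucrose phosphate synthase, had 346 at 16 °C and 167 at 22 °C in high R:FR, and 322 and 168 in low R:FR. The pairs were nearly equal in both lights, and the high R:FR change was 2.07-fold (log2 1.05, local SD 0.34). F2KP, which makes and breaks down fructose 2,6-bisphosphate, a regulator of how carbon is divided between sucrose and starch, had 657 and 345 in high R:FR and 727 and 382 in low R:FR (log2 0.93 in each). SWEET13, a sucrose exporter gene, had 53.2 and 25.9 in high R:FR and 61.5 and 30.5 in low R:FR (log2 1.04 and 1.01).

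DPE1, which encodes a plastid enzyme of starch breakdown, had 142 and 78.4 in high R:FR (log2 0.86). Of the 7 measured genes of the list 2 were at least 2-fold higher, beside 1.12% of all measured probe sets, and 0 lower, with a median of 0.86. SWEET11 was at 0.26, and SBE2.2, a starch branching enzyme gene, and APL3, a subunit gene of the enzyme that begins starch synthesis, were below 0 at -0.28 and -0.74. The SWEET transporters as a family, grouped after the values were seen, went both ways: SWEET2 was at 0.82 and SWEET17, a vacuolar fructose transporter gene with signals of 87.4 and 179, at -1.03. With log2 taken of the signal plus a pseudocount of 14.5 in place of the floor, ATSPS4F was at 0.99 and SWEET13 at 0.74, so both then lay under 2-fold.

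The following genes of chloroplast proteins, most of them from the 20 highest with a symbol and each short of 2-fold, were grouped after their values were seen. NTRC, a thioredoxin reductase that keeps plastid enzymes reduced, had 712 at 16 °C and 412 at 22 °C in high R:FR, and 658 and 380 in low R:FR (log2 0.79 in each). CHLI2, a subunit gene of the chelatase that inserts magnesium into chlorophyll precursors, had 304 and 162 in high R:FR and 295 and 200 in low R:FR (log2 0.91). CRR42, needed to assemble the plastid NDH complex, had 247 and 132 in high R:FR and 260 and 129 in low R:FR (log2 0.91). In all 3 genes both 16 °C arrays were above both 22 °C arrays, as were 23.7% of all measured probe sets.

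PDF1B, a peptide deformylase gene unrelated to the defensins, was at 0.83 and CPNIFS, which encodes a plastid enzyme that frees sulphur for iron-sulphur clusters, at 0.79. SAPX, the stromal ascorbate peroxidase gene, was at 0.76 and its thylakoid counterpart TAPX at 0.32. GRXC1, a glutaredoxin gene, passed 2-fold with 66.7 and 32.7 in high R:FR (log2 1.03) but not in low R:FR, where it had 37.2 and 46.6, and its high R:FR change was under 2-fold with the floor at the 50th percentile (0.82) or with the pseudocount (0.78). The antioxidant list had 10 measured genes. Of these 1 was at least 2-fold higher and 1, PRX52, lower, beside 1.12% and 3.17% of all measured probe sets. Above 0 were 7, beside 6210 of all 13643, with medians of 0.27 (high R:FR) and -1.06 (low R:FR).

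Nuclear genes of the photosynthetic apparatus stayed under 2-fold. None of the 8 measured passed it, but few of all measured probe sets did (1.12% higher and 3.17% lower), so this does not set them apart. Their log2 changes ran from -0.06 for PSAE-1, a photosystem I subunit gene, to 0.29 for SBPASE, a Calvin cycle enzyme gene. Their median was 0.09 and that of the 6 antenna and chlorophyll genes 0.12, but with the trend of change with signal removed these were -0.04 and -0.01, so neither direction held. PSAN and PSBY, subunit genes of photosystems I and II, were at 0.10 and 0.08. LHCB4.1, an antenna protein gene, was at 0.01, LHCB4.2 at -0.41 and CHLM, of chlorophyll synthesis, at 0.23.

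Of the remaining lists, cell cycle and histone genes had 1 of 7 at least 2-fold lower, beside 3.17% of all measured probe sets, with a median of -0.28. That gene was AUR2, an Aurora kinase gene of dividing cells, with 50.2 and 106 in high R:FR (log2 -1.08) and 78 and 91 in low R:FR. It was under 2-fold with median scaling (-0.96), quantile normalization (-0.97) or the trend removed (-0.99). Its relative AUR1 was at -0.55 and the histone gene HTB1 at 0.24. In the flavonoid list 1 of 6 was at least 2-fold lower, beside the same 3.17%. This was UF3GT, which adds a sugar to anthocyanins, with 45.9 and 96.9 (log2 -1.08), and it too was under 2-fold with those settings. DFR, an enzyme gene of anthocyanin synthesis, was at -0.77, while UGT78D2 (0.57) and CHIL (0.51) were above 0.

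The gibberellin receptor genes GID1B and GID1C had equal signals at both temperatures in high R:FR, and GID1A was at 0.64, while in low R:FR GID1B had 25.5 at 16 °C and 54.4 at 22 °C (log2 -1.09). The clock gene GI, with 92.8 and 142, was at -0.62, HYH, a light signalling factor gene, at 0.50, and the ethylene genes RTE1 and EIN3 at -0.84 and -0.45. Of the genes that mobilize seed oil SDP1, a lipase gene, was at -0.49 and AIM1, of beta-oxidation, at -0.44, while ICL, of the glyoxylate cycle, had 3.2 and 20.5. In all, 101 of 826 listed genes were measured, and 5 of the 26 lists (abscisic acid, heat shock, flowering, membrane lipid desaturation and PHYA itself) had none.

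**Figure D3:**
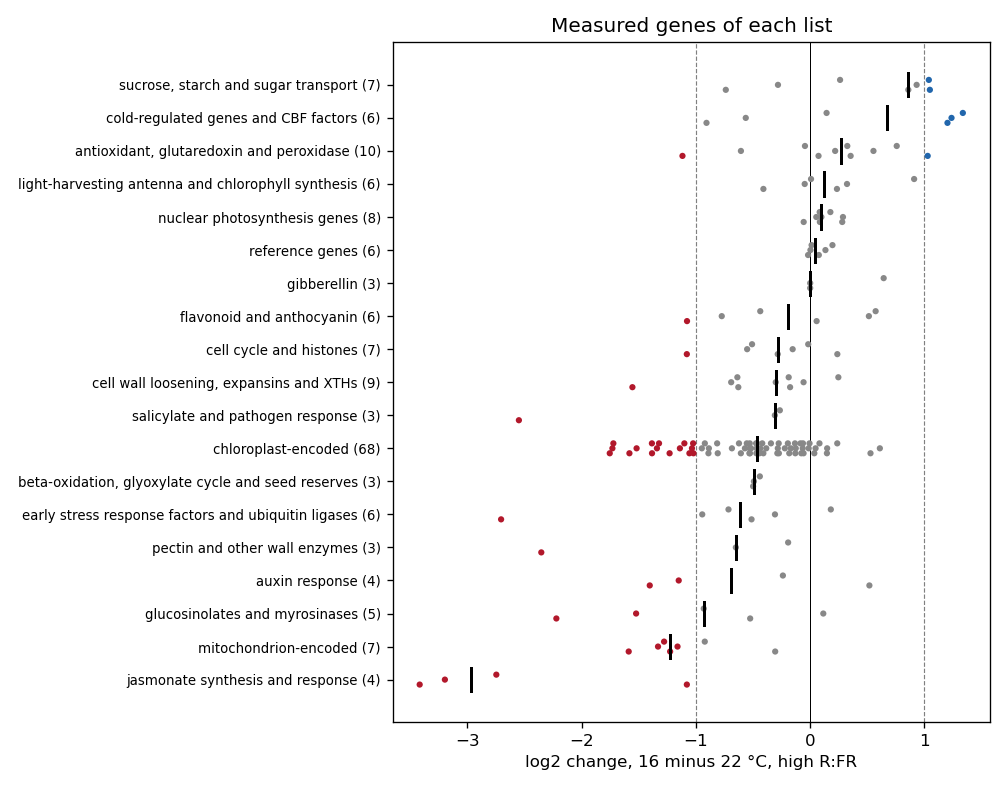
Log2 change at 16 minus 22 °C in high R:FR (x axis) of each measured gene of the lists with at least 3, with the number measured in brackets and the black bar at the list median. Red points are at least 2-fold lower and blue points at least 2-fold higher, past the dashed lines. The jasmonate list, with a median of -2.97, lies farthest left and the sugar list, with 0.86, farthest right.

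Transcripts of both organelle genomes were lower at 16 °C in high R:FR. Of the 68 measured chloroplast-encoded probe sets 60 were below 0, beside 54.3% of all measured probe sets, 16 were at least 2-fold lower, beside 3.17%, and 0 higher, with a median of -0.47. ndhD, a subunit of the plastid NDH complex, had 79.5 at 16 °C and 264 at 22 °C in high R:FR, and 307 and 409 in low R:FR (log2 -1.73). The array of 16 °C in high R:FR was the low one, and this was common: it was the lowest of all 4 arrays for 53 of the 68. psbB, of photosystem II, had 50.6 and 132 in high R:FR and 362 and 534 in low R:FR. clpP, of the plastid protease, had 514 and 1133 in high R:FR and 689 and 1437 in low R:FR, and with ndhK it made the 2 that were at least 2-fold lower in both lights.

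The difference lay mainly in chloroplast-encoded probe sets of lower signal than the others, though not all of these were dim for the array. ndhD (79.5 and 264) and ndhK (118 and 245) were above the median of all signals, 37.8. The 33 chloroplast-encoded probe sets with a mean signal of at least 500 had a median of -0.17 and 1 was at least 2-fold lower. The 35 below 500 had a median of -0.89 and 15 were lower. Signals below 500 reach into all 5 signal classes of measured probe sets, the brightest of which starts at 249. The share at least 2-fold lower was 6.6% in the dimmest of these classes and 1.54% in the brightest. psaB, of photosystem I, had 2864 and 2997, and atpB, of the ATP synthase, 4358 and 4250. The 8 above 0 included rpoA (0.53), a subunit of the plastid RNA polymerase, and ribosomal protein genes such as rpl14 (0.61) and rps3 (0.24). In low R:FR 8 of the same 68 were at least 2-fold higher, beside 1.65% of all measured probe sets, and 8 lower, beside 6.6%. Their median there was -0.21. Of the 16 called in high R:FR, 5 were above 0 in low R:FR, as were 45.9% of all measured probe sets.

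Of 23 mitochondrion-encoded probe sets 7 were measured, and all 7 were below 0, beside 54.3% of all measured probe sets. At least 2-fold lower were 5, beside 3.17% of all and 6.6% in the dimmest of the 5 signal classes. Their median was -1.23, or -0.32 after the floor was raised to the 50th percentile, most being dim. ccb382, of cytochrome c assembly, had 41.5 and 125 in high R:FR and 70.9 and 234 in low R:FR (log2 -1.59), and cox1, of cytochrome oxidase, had 25.4 and 56.8 (log2 -1.16). Signals near the 3' end of control transcripts relative to the 5' end, a sign of RNA quality, were higher at 16 °C for 5 of 6 pairs in high R:FR. The pairs cover only actin, GAPDH and ubiquitin, so they are not independent. Their mean log2 ratio was 0.82 at 16 °C and 0.73 at 22 °C in high R:FR, and 0.54 and 0.64 in low R:FR. The part of RNA quality in the organelle values was not tested. Without organelle-encoded probe sets 411 probe sets were lower and 153 higher.

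**Figure D4:**
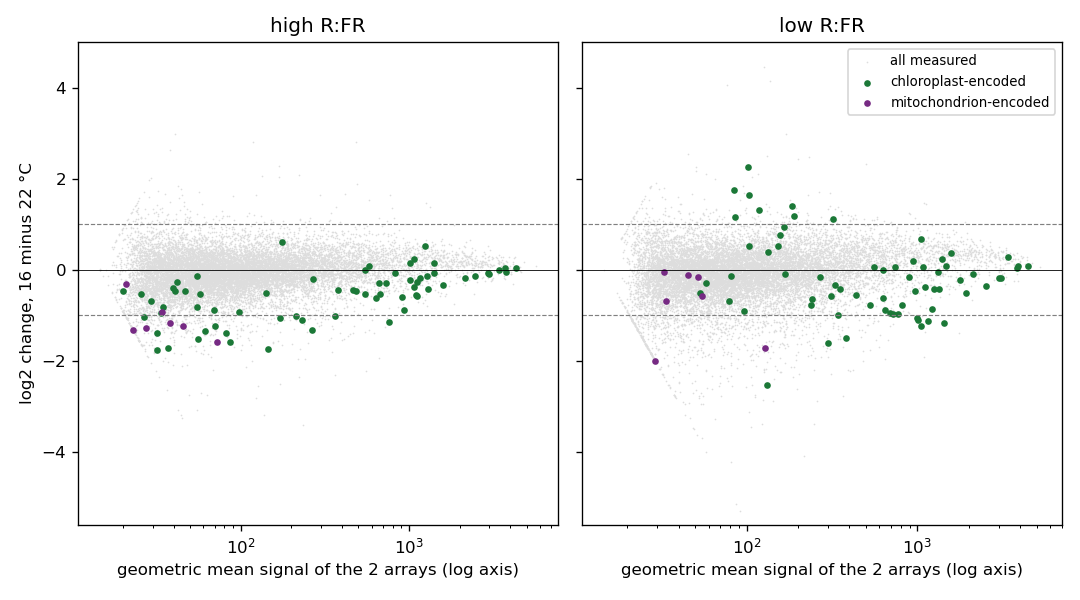
Log2 change at 16 minus 22 °C (y axis) against the geometric mean signal of both temperatures (x axis, log) for all measured probe sets in grey, chloroplast-encoded in green and mitochondrion-encoded in purple, in high R:FR on the left and low R:FR on the right. In high R:FR 60 of 68 chloroplast-encoded points are below 0, those of lower signal farthest, and in low R:FR they spread to both sides.

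Whatever their name, the genes with the highest changes carried locus tags. AT1G13470 had 94.8 at 16 °C and 15.3 at 22 °C in high R:FR but 22.5 and 27.6 in low R:FR (log2 2.63 and -0.29). AT4G30650 had 273 and 65.2 in high R:FR and 575 and 32.6 in low R:FR, and AT3G16670 had 740 and 233 in high R:FR and 481 and 146 in low R:FR (log2 2.06 and 1.67 in high R:FR). These last genes were higher at 16 °C in both lights, while AT1G13470 was high on a single array. AT3G13610, listed in RefSeq also as F6'H1, which makes a precursor of the coumarin scopoletin, had 80.3 and 22.5 in high R:FR and 17.8 and 30.9 in low R:FR (log2 1.84), again high on 1 array. AT2G39920 and AT1G71910 were at 1.78 and 1.70, the latter with 14.7 at 22 °C, close to the floor. On the low side AT2G27080 had 10.3 and 123 in high R:FR, at least 8.49-fold lower.

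The second pair of arrays shows how far these differences recur. In low R:FR 225 probe sets were at least 2-fold higher at 16 °C (1.65%) and 901 lower (6.6%). Lower in both lights were 199 probe sets, 1.46% of all measured, 46.1% of the list from high R:FR and 22.1% of that from low R:FR. Higher in both were 42, 0.308% of all, 27.5% of the high R:FR list and 18.7% of the low R:FR list. Of the 432 lower in high R:FR, 382 (88.4%) were below 0 in low R:FR, as were 53.9% of all measured probe sets, and of the 153 higher, 118 (77.1%) were above 0, as were 45.9% of all. As a description over measured probe sets, Pearson's r between both sets of log2 changes was 0.498 and Spearman's rho 0.482.

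Both 16 °C arrays were below both 22 °C arrays for 359 of the 432 (83.1%; 30.5% of all measured) and above for 115 of the 153 (75.2%; 23.7% of all). The choice of the 432 and 153 already fixes the order of the high R:FR pair. Part of the gap to all measured probe sets therefore comes from that choice. On the other hand, the array of 16 °C in high R:FR could stand apart, at least 2-fold from all 3 other arrays. This was so for 69 of the lower and 23 of the higher probe sets, which are all such cases among the 13643 measured. The 22 °C array of high R:FR stood apart in this way for 7 and 9. Among all measured probe sets, the 16 °C array of low R:FR stood apart most often, below the others for 258 and above them for 30. Standing apart does not mean that a call rests on a single array. EXLB1 and GH3.3 stood apart at 16 °C, but their other pair of arrays passed 2-fold in the same direction (log2 -1.24 and -1.33). Among named genes, JRG21, OSM34, PDF1.2, NAI2, XTH18, ALDH7B4, COR27 and SWEET13 passed 2-fold in both lights, with OSM34 at -5.30 and JRG21 at -5.14 in low R:FR, whereas PUB19, AOP3, WES1, GRXC1 and AT1G13470 did so in high R:FR only by that rule. That a value passes in one light and not in the other was not tested as a difference.

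**Figure D5:**
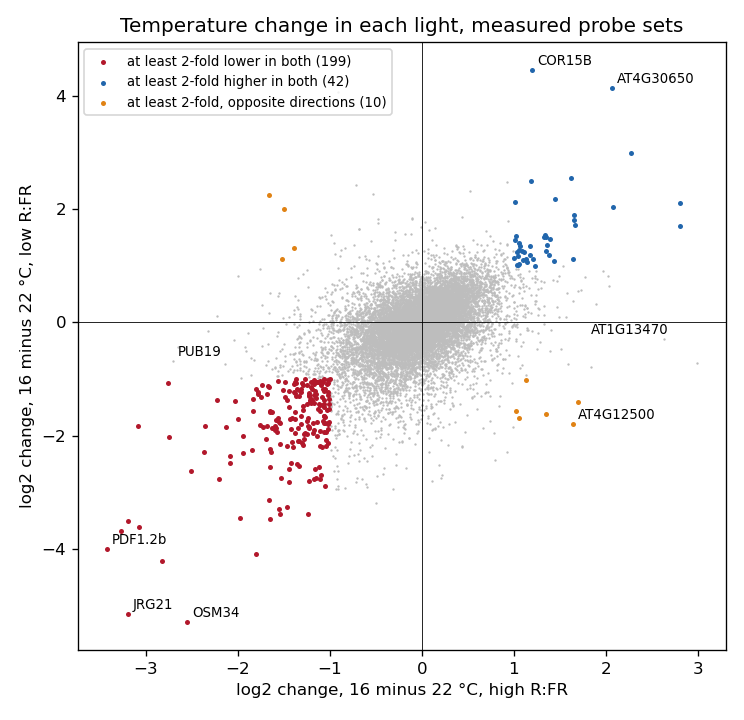
Log2 change at 16 minus 22 °C of each measured probe set in high R:FR (x axis) and low R:FR (y axis), with each axis from its own pair of arrays. Red points (199) are at least 2-fold lower and blue points (42) at least 2-fold higher in both lights, and the 10 orange points pass 2-fold in opposite directions.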

How the data were processed

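Seedling RNA was measured on Affymetrix arrays, 1 for each of 4 conditions, and both high R:FR arrays are compared here. The deposited values are linear intensity values, and the submitters' processing notes name MAS5 as the tool. For its version, settings and calls of presence, nothing is given in the sources used here. The mean of the deposited intensity values without the top and bottom 2% was about 100.01 on every array. Labels name no batch or scan date.

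From these, values under the 30th percentile of all signals (14.5) were raised to it before the log2 step. Apart from 64 control probe sets there were 22746, and those with a mean log2 over 4 arrays at or above the 40th percentile (23.2) were kept. Of 27 control probe sets without a partner in the sample, 1 of 54 values lay above the floor in high R:FR (17.2). Of the 22746, 13513 had 1 gene (13436 matched in RefSeq), 503 several, and 8730 were unnamed here. The number of arrays limits the precision. A fold against the floor is written "at least".

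Members and lists were chosen with earlier results of these data known. Named genes are the 20 highest and 20 lowest changes with a symbol and a brighter signal of at least 37.8, list members past 2-fold or else the 2 nearest the list median, the 6 highest and lowest of any name, up to 10 a direction past 2-fold in both lights, and reference genes. Other genes and list members are given as values, and families and organelle splits were chosen after values were seen. Calculations used Python 3.11.15, numpy 2.4.6, pandas 2.3.3 and scipy 1.17.1. The code that calls changes was run on simulated data with planted changes larger than 2-fold and a spread below the median local SD. That run checks the code and does not measure the accuracy of 2-fold calls here. Alternatives were other scaling, floors, filters, a pseudocount, a 3-fold threshold and the mean over probe sets of a gene.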

Additional observations from a re-analysis of the deposited data

Results flagged for a closer look

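Among probe sets with a gene name, 4 passed 2-fold in opposite directions at the 2 light qualities, each light having 1 array per temperature, and the difference between lights was not tested. The value given is the log2 change in high R:FR minus that in low R:FR. The chloroplast-encoded petN, of the cytochrome b6f complex, had signals of 19.6 at 16 °C and 51.2 at 22 °C in high R:FR, and 187 and 75.4 in low R:FR, a difference of -2.69. The chloroplast-encoded ycf3, of photosystem I assembly, had 33 and 94.6 in high R:FR and 473 and 218 in low R:FR, a difference of -2.63. AT4G12500 had 521 and 167 in high R:FR and 41.6 and 145 in low R:FR, a difference of 3.45. AT3G13950 had 70.2 and 33.8 in high R:FR and 21 and 68 in low R:FR, a difference of 2.75. The other 6 of the 10 probe sets with opposite directions are unnamed here.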

How the results depend on the processing

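The counts depended on how dim signals were treated. In the order lower and higher in high R:FR, then lower and higher in both lights, the values of 432, 153, 199 and 42 became 224, 71, 119 and 27 when the floor was raised to the 50th percentile, 226, 59, 105 and 19 with a pseudocount in its place, 193, 60, 99 and 26 with a filter at the 60th percentile, and 78, 24, 36 and 9 at 3-fold. Scaling to the same median gave 311 and 221 in high R:FR, and 129 and 72 in both lights. Lower outnumbered higher calls in high R:FR under each of these. Quantile normalization (350 and 191), a floor at the 10th percentile (448 and 163), no filter (500 and 194), a filter on both high R:FR arrays (413 and 156) and, chosen after seeing the data, removal of the trend with signal (345 and 200) or of organelle-encoded probe sets (411 and 153) stayed within 1.5 times. Of 41 named genes past 2-fold, 37 stayed past it with median scaling, 39 with quantile normalization, 30 with the higher floor and 29 with the pseudocount, and none changed sign. The flavonoid median was 0.29 with the filter at the 60th percentile, against -0.19. Each listed gene had 1 measured probe set, so the mean over probe sets changed no list median. No paired analysis was possible because the labels give no replicate numbers and each condition has 1 array. The floor bounds the fold of dim probe sets: 57 of the 432 lower probe sets were at the floor at 16 °C and 13 of the 153 higher ones at 22 °C.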

Other observations

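Gene families were grouped by symbol after the values were seen, so their counts are descriptions. All 8 measured autophagy genes of the ATG group were below 0 in high R:FR, beside 54.3% of all measured probe sets, and 0 passed 2-fold, with a median of -0.34, among them ATG8H (42.6 at 16 °C and 64.6 at 22 °C), ATG8E (124 and 174) and ATG8F (371 and 475), which encode the ubiquitin-like protein of autophagosome membranes. Of the 12 measured TBL genes, a family of wall polysaccharide acetylation, 10 were below 0, beside the same 54.3%, and 2, TBL36 (26.1 and 65.7) and TBL38 (25.3 and 54.3), were at least 2-fold lower, beside 3.17%, with medians of -0.20 (high R:FR) and -0.06 (low R:FR). Of the 22 UGT glycosyltransferase genes 10 were above and 12 below 0, beside 54.3% of all below 0. At least 2-fold lower were 3, UGT73B5, UGT84A3 and UGT74B1, beside 3.17% of all, and 0 were higher. The UGT medians were -0.17 (high R:FR) and -0.69 (low R:FR). UGT76B1, which glucosylates the immune signal salicylate, was at 0.79 in high R:FR (63.5 and 36.6) and at -2.43 in low R:FR (7.5 and 78.4).

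Genes next to each other in RefSeq's order were also counted. Of 2136 pairs of adjacent measured genes, 1 was at least 2-fold higher for both members (AT3G60420 and AT3G60440) and 2 were lower for both (AT1G14120 with AT1G14130, and AT1G22160 with AT1G22170). Of the 7317 measured probe sets with 1 gene, 82 were at least 2-fold higher and 215 lower. Whether neighbours passed together more or less often than other pairs was not tested.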
